A study of Mus musculus with 6 samples.

Results

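The genes described here are 6 of the 23420 genes in a count table of regulatory T cells (Tregs) from mouse tumors. They are the receptors S1pr1, S1pr4 and Ccr7, the retention gene Cd69 and the integrin chains Itga4 and Itgb7. They were found in the table by symbol, each as 1 row, and all 6 were abundant enough to be tested. They were chosen by what they do in T cell migration and with the measured fold changes of anti-PD-1 over untreated libraries in view, that of S1pr1 included. Their treatment differences are therefore given as a description, with no test, and support nothing by themselves.

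Tregs were sorted by GFP from transplanted T11 tumors (claudin-low, triple-negative breast cancer) of Foxp3-GFP mice on the BALB/c strain, in which GFP marks cells that express Foxp3. The sort reached a purity above 90%. The anti-PD-1 group (3 libraries, numbered 4, 5 and 6) came from mice given 200 µg of the antibody J43 by 2 intraperitoneal injections per week, and the untreated group (3 libraries, numbered 1, 2 and 3) from mice with no antibody. Mice of both groups had received 10000 T11 cells, and tumors were taken at 150 mm2. The labels name no control antibody and do not say how many mice stand behind a library, so the spread between libraries may be technical.

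Lymphocytes leave tissue by following sphingosine-1-phosphate (S1P), a lipid that is abundant in blood and lymph, through the receptor encoded by S1pr1. The surface protein CD69, made early after activation, binds this receptor and takes it off the surface, which holds cells in place. CCR7 guides T cells into and within lymph nodes along the chemokines CCL19 and CCL21. The chain encoded by Itga4 pairs with that of Itgb7 in an integrin for the gut vessel ligand MAdCAM-1, or with that of Itgb1 in an integrin for VCAM-1. The chain of Itgb7 also pairs with that of Itgae, and this pair binds E-cadherin and retains T cells in epithelia.

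Total counts ran from 4766533 to 5219249 in the anti-PD-1 libraries and from 5470816 to 6686774 in the untreated libraries. Counts are given as CPM (counts relative to library size), scaled by TMM, a method that equalises libraries on their common genes. Foxp3 stood at 543, 562 and 461 CPM in libraries 4, 5 and 6 of the anti-PD-1 group, against 460, 437 and 453 CPM in untreated libraries 1, 2 and 3. Of the other Treg markers, Ctla4 stood at 1302, 1317 and 1190 CPM in those anti-PD-1 libraries, against 1839, 1492 and 1733 CPM untreated. Ikzf2, the gene of Helios, stood at 1918, 1863 and 1681 CPM after anti-PD-1, against 2360, 2000 and 2072 CPM untreated. Foxp3 was thus higher, and Ctla4 and Ikzf2 lower, in every anti-PD-1 library, though the Foxp3 groups nearly met, at 461.1 and 460.0 CPM. Cd4 was also higher in each (467 to 496 CPM after anti-PD-1, 365 to 459 CPM untreated). Il2ra overlapped (952 to 1255 CPM after anti-PD-1, 1059 to 1667 CPM untreated), as did Tnfrsf18 and Cd3e. Of all tested genes, 13.6% had no overlap between the groups, in either direction. The 7 Treg and CD4 T cell markers summed to 5504 to 6249 CPM after anti-PD-1 and to 6484 to 7224 CPM untreated. Markers of other cells were low: 2 CD8 T cell markers summed to 18.7 to 51.1 CPM after anti-PD-1 and 11.0 to 31.1 CPM untreated, 5 B cell markers to 4.95 to 19.0 and 3.20 to 10.8 CPM, and 6 macrophage markers to 7.62 to 11.9 and 5.36 to 8.94 CPM. The 5 tumor and fibroblast markers summed to 37.3 to 53.6 CPM after anti-PD-1 and 27.5 to 53.5 CPM untreated, 6 dendritic cell markers to 9.27 to 18.4 and 2.14 to 17.1 CPM, and 4 NK cell markers to 2.88 to 10.8 and 7.68 to 9.11 CPM. Of 4 endothelial markers, Cdh5, Kdr and Lyve1 were at 0, and Pecam1, which T cells also express, stood at 83.6 to 123 CPM after anti-PD-1 and 64.5 to 73.7 CPM untreated. Anti-PD-1 library 6 had the highest share of the ribosomal RNA gene Rn45s, 25.1% of its counts, against 21.4% and 21.8% in anti-PD-1 libraries 4 and 5 and 21.9% to 22.3% in untreated libraries. Untreated library 1, the most deeply sequenced, stood apart: a chi-square of counts per degree of freedom was 24.7 to 32.4 in its pairs and 9.98 to 15.7 in all other pairs of libraries. Without it, edgeR called 19 genes in place of 3, S1pr1 among them. The log2 fold changes were then 0.73 for S1pr1, 0.40 for S1pr4, 0.88 for Ccr7, 0.22 for Cd69, 0.45 for Itga4 and -0.08 for Itgb7, and those with all libraries are given below. In sorted bulk cells, fewer cells that express a gene and less of its RNA per cell cannot be told apart.

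Promoter windows of S1pr4, Itga4 and Itgb7, from 250 bases before to 50 bases after the RefSeq start, were in the RefSeq table of GRCm38.p6 (mm10). They are shown because KLF2, a factor known to act on egress and homing genes, rose with treatment in these libraries. Capitals mark CACCC, the core letters bound by KLF factors, or its reverse complement GGGTG.
S1pr4, chr10:81500088-81500387, minus strand: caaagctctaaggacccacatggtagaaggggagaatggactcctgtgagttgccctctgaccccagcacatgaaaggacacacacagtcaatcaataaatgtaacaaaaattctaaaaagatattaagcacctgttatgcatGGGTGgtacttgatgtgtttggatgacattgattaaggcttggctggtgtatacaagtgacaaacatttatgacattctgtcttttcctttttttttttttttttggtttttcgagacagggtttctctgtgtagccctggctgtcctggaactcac
Itga4, chr2:79255176-79255475, plus strand: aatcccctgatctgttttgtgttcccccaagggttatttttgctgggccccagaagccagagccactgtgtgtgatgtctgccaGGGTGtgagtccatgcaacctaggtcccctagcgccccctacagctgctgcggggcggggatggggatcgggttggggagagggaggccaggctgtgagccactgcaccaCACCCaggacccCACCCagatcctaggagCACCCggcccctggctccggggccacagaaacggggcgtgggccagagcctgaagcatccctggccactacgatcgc
Itgb7, chr15:102231886-102232185, minus strand: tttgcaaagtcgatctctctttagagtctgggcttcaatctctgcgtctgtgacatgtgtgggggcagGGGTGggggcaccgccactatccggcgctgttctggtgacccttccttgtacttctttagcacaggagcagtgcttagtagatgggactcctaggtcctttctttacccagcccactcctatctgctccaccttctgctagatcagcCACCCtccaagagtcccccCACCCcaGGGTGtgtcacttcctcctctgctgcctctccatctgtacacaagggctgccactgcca

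Read on both strands, the motif CACCC occurred 4 times in the Itga4 window, 4 times in the Itgb7 window and 1 time in the S1pr4 window. In Itga4, 3 of the matches began within 56 bases before the start, and in Itgb7, 3 began within 35 bases before it. Of 32851 such windows in the table, 57.5% held at least 1 match and 3.1% held at least as many as Itga4 or Itgb7. The AP-1 motif TGANTCA (in 7.81% of windows) and the FOXO motif GTAAACA (in 3.65%), on both strands, had no match in the 3 windows. A match describes letters and is no sign that a factor binds. Itga4 and Itgb7 had equal numbers of matches, and log2 fold changes of 0.39 (0.23 without untreated library 2) and -0.02. Whether KLF2 had a part in these fold changes was not tested.

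S1pr1, the egress receptor, lies on chromosome 3 (mm10, 115710433 to 115715055, minus strand). It stood at 361, 347 and 345 CPM in libraries 4, 5 and 6 of the anti-PD-1 group, against 229, 207 and 215 CPM in untreated libraries 1, 2 and 3. Every anti-PD-1 library was above every untreated one. The means were 351 ± 8.38 CPM and 217 ± 11.4 CPM (SD, n = 3 each), a 1.62-fold difference, or 0.69 ± 0.15 on the log2 scale (SE from the edgeR fit across all genes).

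The libraries of a group lay close together for S1pr1. Its SD between libraries of 1 group, pooled over both groups, was 0.0583 on the log2 scale, against a median of 0.391 for all 10352 tested genes. That placed it at percentile 0.406 of the tested genes by spread. The tested genes include ones with far fewer counts, and an SD from 3 libraries per group is itself uncertain. Since S1pr1 was chosen with its fold change in view, nothing is read from this rank. With 1157 to 1902 counts per library, its counting error was 2.29% to 2.94%, and its coefficient of variation was 2.39% in anti-PD-1 and 5.24% in untreated libraries. Leaving out any 1 library left the log2 fold change between 0.66 and 0.73. EdgeR did not call S1pr1 with all libraries (adjusted p = 0.0933 over all genes). Of the fits that left out 1 library, it called S1pr1 only in that without untreated library 1.

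S1pr4, a receptor for the same lipid found mainly on blood cells, lies on chromosome 10 (81497745 to 81500137, minus strand) and was the lowest of the 6. It stood at 20.5, 38.5 and 33.2 CPM in libraries 4, 5 and 6 of the anti-PD-1 group, against 28.2, 25.0 and 21.2 CPM in untreated libraries. Anti-PD-1 library 4 lay below every untreated library and libraries 5 and 6 above them, so the groups overlapped. The log2 fold change was 0.30 ± 0.31 (SE). It ran from 0.10 (without anti-PD-1 library 5) to 0.53 (without anti-PD-1 library 4) and was 0.19 without untreated library 3. S1pr4 had 108 to 186 counts per library, a counting error of 7.33% to 9.62%.

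The other S1P receptors were low. S1pr2, which varied most in untreated libraries (0, 13.4 and 4.55 CPM), averaged 4.09 ± 0.76 CPM after anti-PD-1 and 5.99 ± 6.82 CPM untreated, a log2 fold change of -0.50 ± 0.78 (SE) that was 0.88 when untreated library 2 was left out. S1pr3 had 1 count in all 6 libraries together, and S1pr5 had none. A difference in these 2 receptors was not detectable at this depth.

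**Figure D1:**
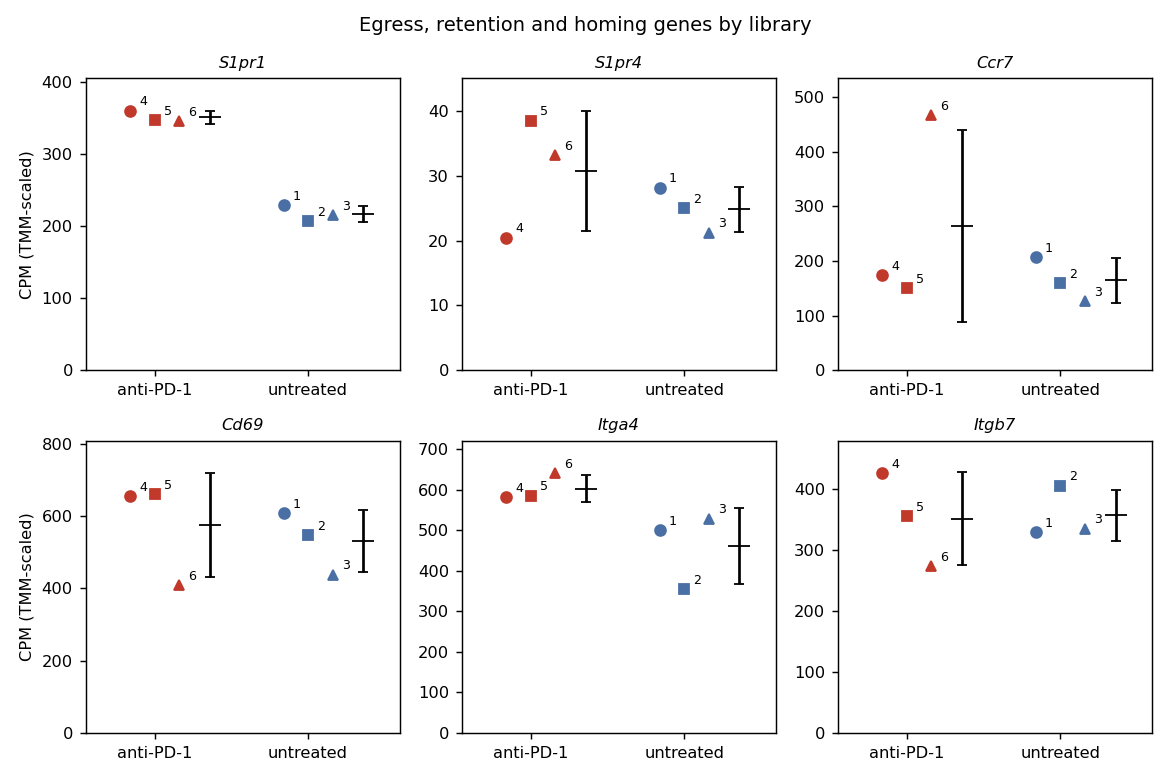
CPM (TMM-scaled) of each of the 6 genes in every library, with anti-PD-1 libraries 4 to 6 in red on the left and untreated libraries 1 to 3 in blue on the right of each panel. Black bars are mean ± SD over 3 libraries. The S1pr1 groups lie apart (345 to 361 against 207 to 229 CPM), while the Ccr7 mean after anti-PD-1 rests on library 6 at 466 CPM.

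Cd69, whose product counteracts the S1P receptor at the surface, lies on chromosome 6 (129267325 to 129275369, minus strand). It stood at 654, 661 and 409 CPM in libraries 4, 5 and 6 of the anti-PD-1 group, against 607, 547 and 438 CPM in untreated libraries 1, 2 and 3. The lowest and the highest value were both from anti-PD-1 libraries, so the groups overlapped. The log2 fold change was 0.12 ± 0.17 (SE). It was 0.31 without anti-PD-1 library 6, 0.01 without library 4, 0.0041 without library 5, 0.22 without untreated library 1 and -0.0080 without untreated library 3.

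Taken within each library, the ratio of S1pr1 to Cd69 does not depend on how libraries are scaled. Per kilobase of exon, S1pr1 had 0.295, 0.281 and 0.452 counts for each count of Cd69 in anti-PD-1 libraries 4, 5 and 6. In untreated libraries 1, 2 and 3 the ratio was 0.202, 0.202 and 0.262. The groups did not overlap, by the small gap between anti-PD-1 library 5 and untreated library 3. On the log2 scale the mean was -1.58 ± 0.38 after anti-PD-1 and -2.18 ± 0.22 untreated, a difference of 0.60 that was 0.38 without anti-PD-1 library 6. Cd69 had more counts per kilobase than S1pr1 in every library. S1pr1 alone did not overlap between groups either. How many gene pairs separate in this way was not counted, so nothing is read from the gap.

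Ccr7, the lymph node homing receptor, lies on chromosome 11 (99144199 to 99155077, minus strand). It stood at 174, 150 and 466 CPM in libraries 4, 5 and 6 of the anti-PD-1 group, against 207, 159 and 127 CPM in untreated libraries 1, 2 and 3. Anti-PD-1 library 6 stood far above the other 5 libraries, which overlapped freely. The log2 fold change was 0.68 ± 0.50 (SE), and -0.02 without anti-PD-1 library 6. Ccr7 was also the most variable of the 6, with a pooled within-group SD of 0.676 on the log2 scale.

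The same library differed from its group in other members. Relative to the mean of the anti-PD-1 group, library 6 was higher by 1.02 on the log2 scale for Ccr7, by 0.16 for S1pr4 and by 0.09 for Itga4, at -0.46 for Cd69 and -0.34 for Itgb7, and at -0.02 for S1pr1. Itgae, at 538 CPM, was lower there than in libraries 4 and 5 (731 and 741 CPM). Tcf7, a factor of naive and memory T cells that was chosen after its values were seen, stood at 146 CPM in library 6 and at 25.0 and 55.5 CPM in libraries 4 and 5. In untreated libraries 1, 2 and 3 Tcf7 stood at 7.04, 13.6 and 37.1 CPM, highest in library 3, where Ccr7 was lowest (127 CPM). Of the anti-PD-1 libraries, library 6 had the lowest summed levels of CD8 T cell (18.7 CPM), B cell (4.95 CPM) and dendritic cell markers (9.27 CPM). It also had the lowest Foxp3 of the 3, and the part of that and of its Rn45s share in these values was not tested.

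**Figure D2:**
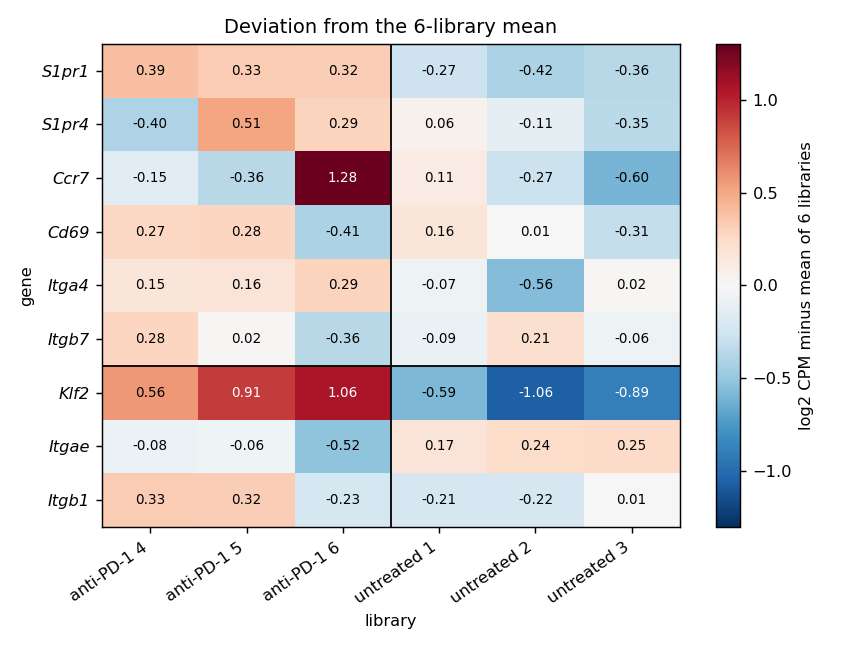
Deviation of log2 CPM from the mean of the 6 libraries, by gene (rows) and library (columns, anti-PD-1 left of the line), for the 6 genes above the line and Klf2, Itgae and Itgb1 below it. Red is above and blue below the mean. S1pr1 is at 0.32 to 0.39 in the anti-PD-1 libraries, while Ccr7 reaches 1.28 in library 6.

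Itga4, on chromosome 2 (79255426 to 79333114, plus strand), stood at 582, 585 and 640 CPM in libraries 4, 5 and 6 of the anti-PD-1 group, against 499, 354 and 529 CPM in untreated libraries 1, 2 and 3. Every anti-PD-1 library was above every untreated one, with untreated library 2 far below the others. The log2 fold change was 0.39 ± 0.15 (SE), and 0.23 without untreated library 2. Exons of Itga4 overlap those of Cerkl on the opposite strand. Counting was by strand, and Cerkl had 5 to 17 counts in anti-PD-1 libraries and 0 to 15 in untreated libraries, against 1981 or more for Itga4.

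Itgb7, on chromosome 15 (102215995 to 102231935, minus strand), stood at 426, 356 and 274 CPM in libraries 4, 5 and 6 of the anti-PD-1 group, against 330, 406 and 336 CPM in untreated libraries 1, 2 and 3. The anti-PD-1 values spanned the untreated range on both sides. The log2 fold change was -0.02 ± 0.16 (SE). Its sign turned without anti-PD-1 library 6 (0.13) or untreated library 2 (0.09), and it was -0.18 without anti-PD-1 library 4.

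Itgb1 and Itgae encode the partners of these chains. Itgb1 averaged 420 ± 86.2 CPM after anti-PD-1 and 340 ± 31.9 CPM untreated, and the value in anti-PD-1 library 6, 320 CPM, was level with the lowest untreated ones (321 and 322 CPM). Itgae averaged 670 ± 114 CPM after anti-PD-1 and 896 ± 28.0 CPM untreated, with every anti-PD-1 library below every untreated one (log2 fold change -0.42 ± 0.15, edgeR adjusted p = 0.461 over all genes). Per kilobase, Itgb7 had 0.997, 0.821 and 0.872 counts for each count of Itgae in anti-PD-1 libraries 4, 5 and 6, against 0.653, 0.765 and 0.626 in untreated libraries 1, 2 and 3. The log2 ratio was thus higher by 0.40 after anti-PD-1, with no overlap (0.32 to 0.48 leaving out 1 library), as Itgae alone had none. The ratio of Itgb7 to Itga4 overlapped between groups, with mean log2 values of 1.08 ± 0.39 after anti-PD-1 and 1.53 ± 0.48 untreated. That difference, -0.45, was -0.17 when untreated library 2 was left out and -0.23 when anti-PD-1 library 6 was. The ratio of Itga4 to Itgb1 also overlapped, at -0.69 ± 0.40 after anti-PD-1 and -0.81 ± 0.25 untreated, and its difference of 0.12 took both signs when 1 library was left out (-0.11 to 0.24).

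**Figure D3:**
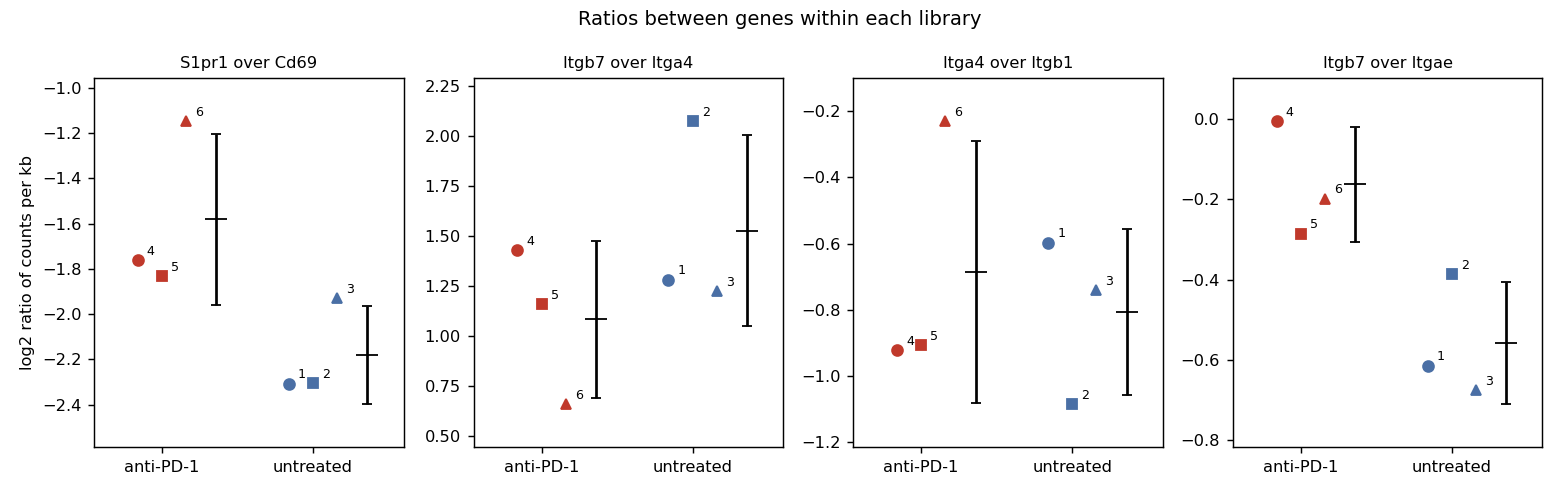
Log2 ratio of counts per kilobase of exon between 2 genes of the same library, with anti-PD-1 libraries in red on the left and untreated libraries in blue on the right, and black bars for mean ± SD over 3 libraries. The ratios of S1pr1 to Cd69 and of Itgb7 to Itgae are higher in every anti-PD-1 library, and the other 2 ratios overlap. S1pr1 and Itgae alone do not overlap either, and the share of all gene pairs that separate was not counted. The vertical scales differ between panels.

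Across the 6 genes, 5 had a log2 fold change above 0, with a median of 0.34 against 0.0016 for all tested genes. In 2 of 6, S1pr1 and Itga4, every anti-PD-1 library was above every untreated one, as in 7.18% of all tested genes. The reverse held for 0 of 6 and for 6.44% of tested genes. EdgeR's quasi-likelihood test, with Benjamini-Hochberg adjustment over all genes, called 0 of 6 at 0.05, where it called 0.0290% of tested genes. At an unadjusted p under 0.05 stood 2 of 6, the same S1pr1 and Itga4, against 8.30% of tested genes (4.23% higher and 4.07% lower). Limma-voom called 0 of 6 (0.0483% of tested genes). DESeq2 called S1pr1, 1 of the 5 to which it gave an adjusted p, where it called 0.785% of such genes. Since this comparison was used to choose the genes, nothing is read from these counts.

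Levels of different genes were compared as RPKM (TMM-scaled CPM per kilobase of exon). Cd69 was highest, at 355 ± 88.6 RPKM after anti-PD-1 and 328 ± 52.8 RPKM untreated (SD, n = 3 each), and lay at percentile 99.0 of the tested genes. After anti-PD-1 came Ccr7 (133 ± 89.1), Itgb7 (132 ± 28.4) and S1pr1 (116 ± 2.77), then Itga4 (61.3 ± 3.32) and S1pr4 (12.8 ± 3.87). The S1pr1 mean lay within the spreads of Ccr7 and Itgb7, but their means lay above the spread of S1pr1. The Ccr7 mean rests on library 6, its values being 88.1, 76.0 and 236 RPKM in libraries 4, 5 and 6, and in libraries 4 and 5 it was below S1pr1 and Itgb7. In untreated libraries Itgb7 (134 ± 15.9) stood above Ccr7 (83.2 ± 20.5) and S1pr1 (71.6 ± 3.76), followed by Itga4 (46.9 ± 9.52) and S1pr4 (10.4 ± 1.45 RPKM). There the S1pr1 mean lay within the spread of Ccr7, but the Ccr7 mean lay above the spread of S1pr1. The order was thus Cd69 first and Itga4 and S1pr4 last in both groups.

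For each of the 6, the 2 genes with the most alike profile were sought among 7201 other genes of at least 10 CPM, by the root mean square difference of centred log2 CPM over the 6 libraries. For S1pr1 they were Gm10336 (0.0643) and Rbm38 (0.0682), the gene of an RNA-binding protein, which stood at 95.9, 96.9 and 88.8 CPM in libraries 4, 5 and 6 of the anti-PD-1 group, against 58.8, 49.1 and 55.3 CPM in untreated libraries. For Cd69 they were Abcb1a (0.0657), the gene of a drug efflux pump, and Pygb (0.0832), that of a glycogen phosphorylase. Ccr7 had the most distant pair, Gypc (0.148) and Ifngr2 (0.210), a chain of the interferon gamma receptor, both highest in anti-PD-1 library 6. Those of S1pr4 were Rnf214 (0.0830) and Cep95 (0.103), those of Itga4 were Utp15 (0.0814) and the interleukin 6 receptor gene Il6ra (0.0942), and those of Itgb7 were Zfp758 (0.0631) and the methyl-CpG binding gene Mbd2 (0.0737). Between members, the most alike were Cd69 and Itgb7 (0.198) and S1pr1 and Itga4 (0.218). This likeness over 6 libraries is a description.

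Around these genes, 11 lists of related genes (128 distinct genes, 108 of them tested) were counted in the same fit. The lists were chosen with earlier results of these data known. Their counts and medians, here and below, are therefore a description, and nothing is read from them. Transcription factors tied to egress and homing receptors lay above 0 in 13 of 14, with a median log2 fold change of 0.46 against 0.0016 for all tested genes. Klf2, which drives transcription of S1pr1 in T cells, rose to 316, 403 and 446 CPM in libraries 4, 5 and 6 of the anti-PD-1 group, against 142, 103 and 115 CPM in untreated libraries (log2 fold change 1.69 ± 0.17, edgeR adjusted p = 1.25e-05 over all genes). In this list, 6 of 14 were higher at an unadjusted p under 0.05, against 4.23% of all tested genes. Klf2 was the 1 member called by edgeR (0.0290% of tested genes), DESeq2 (0.785% of genes) calling Klf3 as well. The other named members did not pass: Klf3, a repressor of the same family, had a log2 fold change of 1.19 ± 0.25, Klf6 0.49 ± 0.14, the quiescence factor Foxp1 0.58 ± 0.18 and Lef1, a factor of resting T cells, 0.56 ± 0.20 (edgeR adjusted p from 0.0933 to 0.481). The median was 0.28 without anti-PD-1 library 6. Foxo1, an activator of Klf2 and Ccr7, stood at 0.19 ± 0.14.

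Tissue residency genes lay below 0 in 16 of 17 tested, the exception being Runx3 (0.14 ± 0.19), with a median of -0.30. With upper-quartile scaling or total counts only, 14 of 17 lay below 0. Leaving out 1 library gave medians between -0.37 and -0.26, over 17 or 18 genes as the filter then passed. None was called by edgeR, where 4 of 17 were lower at an unadjusted p under 0.05, against 4.07% of all tested genes. DESeq2, which called 0.785% of genes, called the inhibitory receptor gene Klrg1. Klrg1 averaged 49.6 ± 5.34 CPM after anti-PD-1 and 89.3 ± 14.9 CPM untreated (log2 fold change -0.84 ± 0.21). Itgae (given above), Prdm1 (-0.48 ± 0.18), the gene of a transcriptional repressor, and Ahr (-0.46 ± 0.18), an environmental sensor, were the other 3. Rgs1, which dampens chemokine and S1P receptor signals and marks resident T cells, stood at -0.0080 ± 0.15.

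Activation genes induced early, as Cd69 is, lay above 0 in 13 of 17, with a median of 0.11. Jun, a subunit of the AP-1 factor, rose to 266 ± 37.2 CPM after anti-PD-1, against 123 ± 4.15 CPM untreated (log2 fold change 1.11 ± 0.16, edgeR adjusted p = 0.0034), and missed the threshold without anti-PD-1 library 5. Fos (0.91 ± 0.18), Ier2 (0.92 ± 0.19), Fosb (0.62 ± 0.25) and Dusp2 (0.43 ± 0.20) did not pass over all genes in edgeR, which called 0.0290% of them. DESeq2 (0.785% of genes) called Fos and Ier2. In this list, 5 of 17 were higher at an unadjusted p under 0.05 in edgeR, against 4.23% of all tested genes. The median of this list lay between 0.03 (without untreated library 3) and 0.26 (without untreated library 1), and leaving out untreated library 2 gave 0.24.

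Among lymph node homing and entry genes, 6 of 10 tested lay above 0 (median 0.15, 0.05 to 0.24 leaving out 1 library), and edgeR called none, with 3 of 10 at an unadjusted p under 0.05, against 8.30% of all tested genes. The selectin ligand gene Selplg had a log2 fold change of 0.40 ± 0.16, the sulfotransferase gene Chst2 -0.37 ± 0.21, and Gcnt1, a glycosyltransferase that builds selectin ligands, -0.98 ± 0.23. DESeq2 (0.785% of genes) called Gcnt1, which averaged 37.9 ± 6.81 CPM after anti-PD-1 and 74.6 ± 8.74 CPM untreated. The CCR7 ligand genes Ccl19 and Ccl21a had no count in any library.

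The 12 tested integrin chains outside the 6 were split evenly around 0 (median -0.0068). Leaving out 1 library gave medians of -0.30 to 0.06, over 12 or 13 chains as the filter then passed, the lowest being over 13 chains without anti-PD-1 library 4. EdgeR called none, with 4 of 12 at an unadjusted p under 0.05, against 8.30% of all tested genes. DESeq2 (0.785% of genes) called Itgb8, a chain that activates TGF-beta, which averaged 137 ± 20.2 CPM after anti-PD-1 and 228 ± 26.7 CPM untreated. Itgav, the partner of Itgb8, had a log2 fold change of -0.37 ± 0.17, and Itga5 averaged 3.51 ± 1.81 CPM after anti-PD-1 and 0.220 ± 0.243 CPM untreated. Integrin activators and adaptors lay above 0 in 4 of 10 (median -0.05, -0.08 to 0.0048), with Rap1b at -0.25 ± 0.14, Skap1 at 0.33 ± 0.18, Rasgrp2 at 0.56 ± 0.36 and Tln1, the gene of talin, at -0.16 ± 0.14. EdgeR and DESeq2 called none of these, and 0 had an unadjusted p under 0.05.

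Receptor coupling and migration genes lay above 0 in 13 of 20 (median 0.14, 0.03 to 0.20 leaving out 1 library), and in 17 of 20 with upper-quartile scaling or total counts only. Those of smallest p were the receptor kinase gene Grk6 (0.43 ± 0.22), the G protein genes Gna13 (-0.26 ± 0.14) and Gnai2 (0.29 ± 0.16) and the G protein regulator gene Rgs2 (-0.24 ± 0.13). Of 10 genes of S1P synthesis, breakdown and transport, 3 were tested: Sgpp1, a phosphatase of S1P, averaged 91.4 ± 15.7 CPM after anti-PD-1 and 68.5 ± 2.71 CPM untreated, the lyase Sgpl1 67.7 ± 18.1 and 76.8 ± 2.85 CPM, and the kinase Sphk2 7.56 ± 4.19 and 5.85 ± 1.75 CPM. The median of the 3 was 0.40. Leaving out a library let a 4th gene pass the filter in 4 of the 6 refits, with medians over 4 genes of -0.18 (without anti-PD-1 library 4), 0.25 (without anti-PD-1 library 5), 0.07 (without untreated library 1) and 0.05 (without untreated library 3). Integrin ligands lay above 0 in 3 of 5 (median 0.21, 0.02 to 0.51), or in 4 of 5 with either of those scalings. Gut and mucosal homing receptors lay above 0 in 3 of 4, with a median of 0.21 that was -0.13 when anti-PD-1 library 6 was left out and -0.21 when untreated library 3 was. In these 2 lists Icam2 averaged 7.08 ± 3.34 CPM after anti-PD-1 and 1.86 ± 1.32 CPM untreated, and Ccr6 48.2 ± 17.2 and 33.0 ± 11.0 CPM. EdgeR and DESeq2 called no gene in these 4 lists. Of their 20, 3, 5 and 4 tested genes, 2 in all, Sgpp1 and Icam2, had an unadjusted p under 0.05. Over all tested genes that share was 8.30%.

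**Figure D4:**
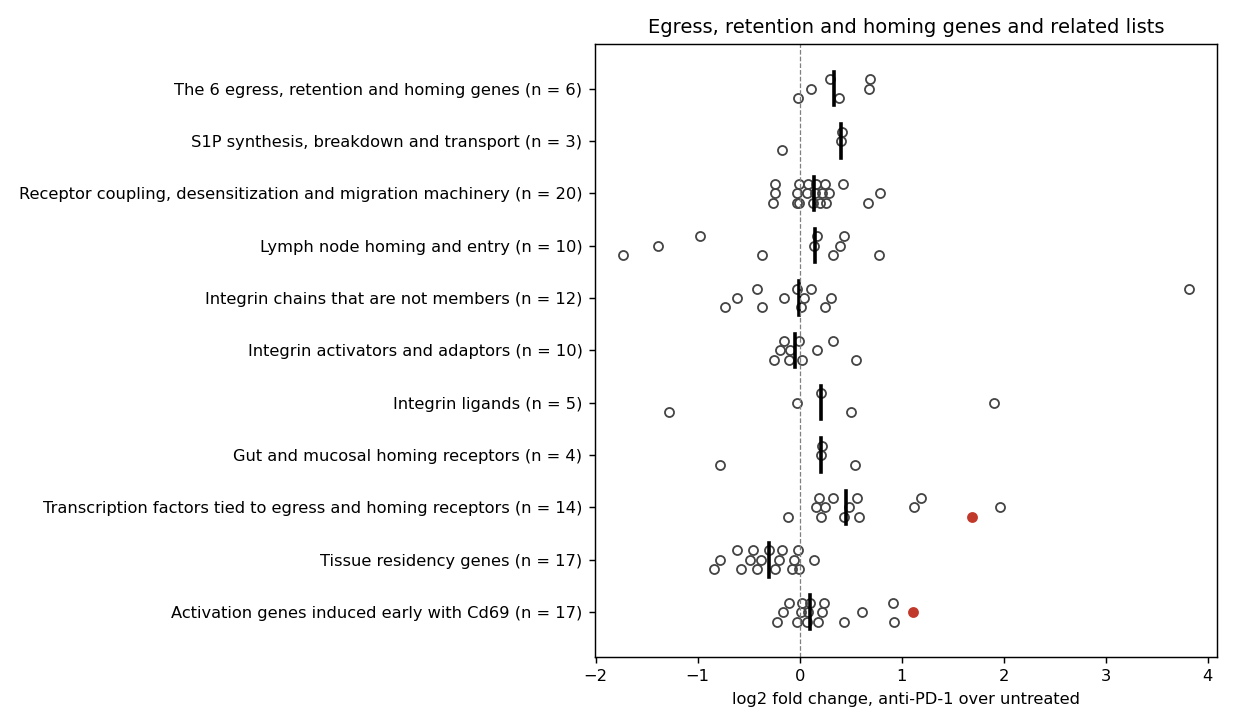
Log2 fold change (anti-PD-1 over untreated) of each tested gene of the 6 and of the related lists with at least 3 tested genes. Each circle is a gene, filled red where edgeR's adjusted p passed 0.05 (Klf2 and Jun), and the black bar is the median. Transcription factors lie mostly right of 0 (median 0.46) and residency genes mostly left (median -0.30). The genes and lists were chosen with earlier results of these data known.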

How the data were processed

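The authors deposited raw counts per gene for 6 libraries, counting read pairs by strand (setting 1) on UCSC mm10 genes in featureCounts 1.5.2 from alignments whose names contain bbmap, per the file headers. Per the submitters' processing notes, bcl2fastq, FastQC and DESeq2 were used too. Neither alignment settings nor any removal of duplicate reads is stated in the labels or headers. The library kit was NuGEN Ovation SoLo, per the labels' protocols. A further unnamed column (1 in all) was not used.

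Counts were fitted with edgeR 4.0.16 in R 4.3.3: filterByExpr (count 10, total 15), which left 10352 of 23420 genes holding 99.8% of counts, TMM, glmQLFit with robust shrinkage and a two-sided glmQLFTest with treatment as the only term. P-values were adjusted by Benjamini-Hochberg over all tested genes at 0.05. Log2 profiles used a prior count of 2. Counting errors in percent cover counting only, while SD and SE include the spread between libraries. Libraries were compared pairwise by a chi-square of their counts, and none was treated as a duplicate.

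The genes described and all lists were chosen with earlier results of these data known. Named are the 6 genes, each list's called genes and up to 4 further ones of smallest p, Itgb1, Itgae and Klf2, and 2 genes of most alike profile per member, except 1 gene that is not reported here. Others named were chosen after their values were seen. Of the listed symbols, 6 matched through a synonym and 1 matched none. Promoters of 3 of the 6 genes were in the RefSeq table. Those of S1pr1, Ccr7 and Cd69 are not shown. Alternatives were DESeq2 1.42.0, limma-voom (limma 3.58.1), other scalings and filters, edgeR without robust shrinkage or with its older quasi-likelihood method (added after seeing the data), and leaving out each library. The fits were tested on simulated data.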

Additional observations from a re-analysis of the deposited data

How the results depend on the processing

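EdgeR called 3 genes. The count was 5 with upper-quartile scaling, 7 with total counts only, 52 with no filter on low counts, 34 with DESeq2, 5 with limma-voom and 5 without robust shrinkage, and from 1 to 19 leaving out 1 library. Klf2 was called under each of the 15 alternatives and Jun under 14. S1pr1 passed under 4 (total counts only, no filter, DESeq2, and without untreated library 1), and Ccr7 under 1, with no filter, where its SE was 0.18 in place of 0.50. The cause was not tested. Of 90 values of the 6 genes' fold changes under the alternatives, 89 moved by less than 1 SD between replicates, the exception being Ccr7 without anti-PD-1 library 6 (-0.02). Of 150 list medians, 140 did so. A fold change can seldom move by 1 SD when 1 of the 3 libraries of a group is left out. The other alternatives rescaled, refiltered or refitted the same counts. Nothing is therefore read from the 89 or the 140. The median log2 fold change of all genes was 0.037 with upper-quartile scaling and nearer to 0 under the other alternatives. Levels per length, tried with total counts only, moved by less than 1 SD, and nothing is read from that either, since only the scaling changed. Ratios were tried by leaving out each library. With 3 libraries per group, that cannot move a difference of mean log2 ratios by 1 SD, so nothing is read from it. No paired analysis was possible because the groups share no replicate number. At this depth S1pr3, S1pr5, Ccl19 and Ccl21a, with 1 count or none over the 6 libraries, could not be compared between groups.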
